A study of Mus musculus with 2 samples.

Results

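Integrins, the laminins they bind and the proteins that tie laminins into basement membranes were followed through a pair of RNA-seq libraries from mouse mammary gland. Every listed gene whose symbol starts with Itga, Itgb or with Lama, Lamb or Lamc and a digit was taken, together with Nid1, Nid2, Hspg2 and Agrn. This gave 45 of the 17333 genes listed in either library: 25 integrin subunits, 11 laminin chains, 4 laminin partners and 5 further genes that share the symbol stem without encoding a subunit. All 40 subunits, chains and partners had reads in both libraries. The cells were freshly sorted from glands of virgin mice aged 8 weeks by an endothelial gate (lineage-negative and positive for CD105, CD31 and Sca1), and were divided by Procr, the protein C receptor of endothelium, on their surface. There was 1 Procr-positive library and 1 Procr-negative library, labelled as Procr-expressing and non-Procr-expressing vascular endothelial cells. The sources used here do not give strain, genotype or the number of animals behind a library. Each difference below therefore compares a pair of libraries, has no replicate check and carries no p-value.

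Basement membranes are thin sheets of extracellular matrix that underlie both endothelium and epithelium and surround pericytes and smooth muscle. Their laminins are trimers of an alpha, a beta and a gamma chain, and a trimer is named by its chain numbers. Nidogens bridge the laminin network to type IV collagen, and the heparan sulfate proteoglycans perlecan (Hspg2) and agrin (Agrn) bind to it. Integrins are heterodimers of an alpha and a beta subunit that anchor cells to this sheet and signal from it. Vessel basement membranes are known mainly for the laminin alpha4 and alpha5 chains. Those of stratified and glandular epithelia are known for the laminin that carries the alpha3 and beta3 chains, which the integrin dimer alpha6 beta4 grips in hemidesmosomes.

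Unique reads numbered 9.22 M in Procr-positive and 9.57 M in Procr-negative cells. Levels are given as RPKM, the reads per kb of listed gene length and per M reads. Procr itself stood at 1321 RPKM in Procr-positive cells, against 147 RPKM in Procr-negative cells. The 20 pan-endothelial markers summed to 2900 RPKM in Procr-positive cells, against 319 RPKM in Procr-negative cells, and all 20 were at least 2-fold higher in Procr-positive cells. The 16 luminal epithelial markers summed to 908 RPKM in Procr-positive cells, against 19973 RPKM in Procr-negative cells, and all 16 were at least 2-fold lower in the Procr-positive library. No gene of either marker list was at 0 in either library. The Procr-negative library thus carried far more keratin and other luminal transcripts than endothelial ones, although its label and gate name it endothelial. The part of these cell types in the integrin and laminin levels was not tested, and fewer cells of a type and less RNA per cell cannot be told apart in bulk libraries.

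The 40 subunits, chains and partners included calls in both directions, evenly on the deposited scale. On the log2 scale of RPKM + 1, 10 were at least 2-fold higher and 10 at least 2-fold lower in the Procr-positive library, each 27.8% of the 36 with at least 1 RPKM in either library. Among all 12509 genes at that level, 13.1% were higher and 23.7% lower by the same rule. The median of all genes on this scale was −0.38, and the median of the 36 members was 0.47. With all log ratios shifted so that the median gene lay at 0, 18 members were higher and 7 lower, and with upper-quartile scaling 15 were higher and 7 lower. The counts over all genes shifted too. On centring, 2426 of the 12509 genes were higher and 1644 lower. With upper-quartile scaling, 2109 genes were higher and 2063 lower. Of those 36, 28 reached 1 RPKM in both libraries and 8 in only 1 of them. The higher genes were Itga1, Itga5, Itga7, Itga9, Itgb2, Lama4, Lamb2, Nid1, Nid2 and Hspg2. The lower genes included Itga2, Itga2b, Itga6, Itgav, Itgb4, Itgb5, Itgb6, Itgb8 and Lamb3.

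**Figure D1:**
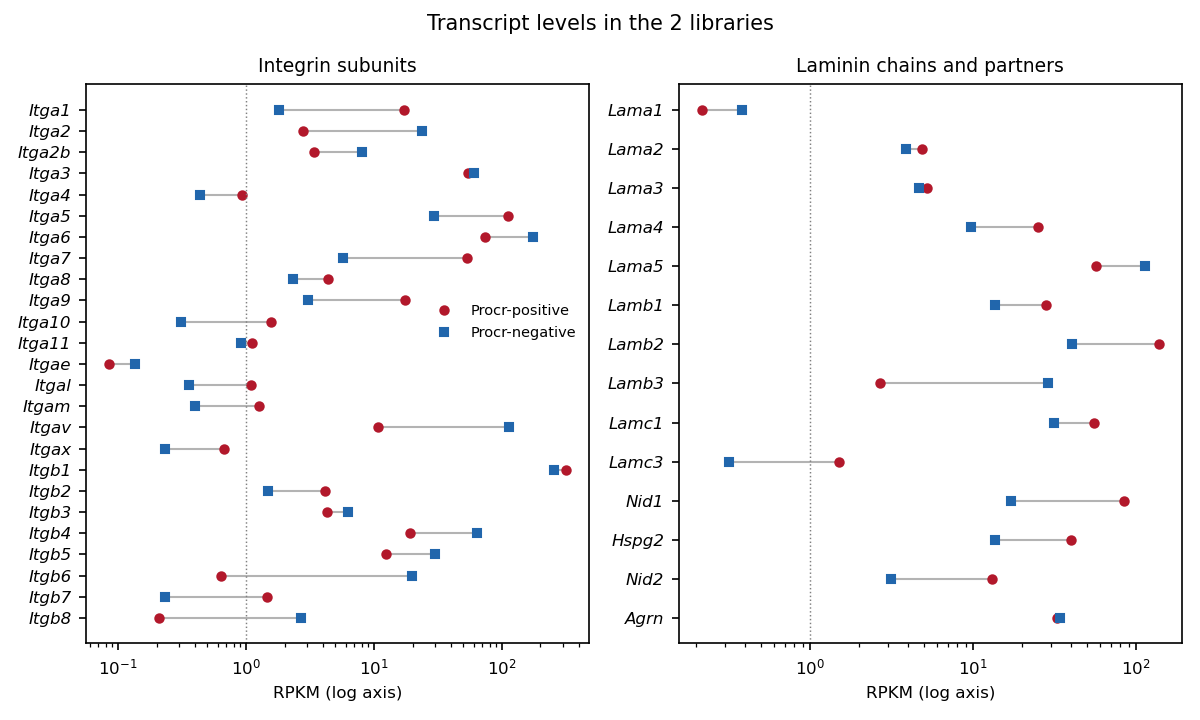
Levels of the 25 integrin subunits (left) and 14 laminin chains and partners (right) in RPKM on a log axis, with a circle for the Procr-positive library, a square for the Procr-negative library and a dotted line at 1 RPKM. Itgb1 is the most abundant subunit in both libraries, at 319 RPKM in Procr-positive cells, against 254 RPKM in Procr-negative cells, while Itgb6, Itgav and Lamb3 lie far lower in the Procr-positive library.

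Among the laminin alpha chains, Lama5 led in both libraries and Lama4 took a larger part in the Procr-positive one. Lama4, the alpha chain of endothelial and mural basement membranes, had 25.0 RPKM from 1396 reads in the Procr-positive library, against 9.77 RPKM from 565 reads in the Procr-negative library. That made it 2.56-fold higher by reads per M in Procr-positive cells (95% counting interval 2.32 to 2.83). Lama5, which is made by both endothelium and epithelium, went the other way, with 57.0 RPKM in Procr-positive cells, against 114 RPKM in Procr-negative cells. It was 2.0-fold lower in Procr-positive cells (1.94 to 2.07), which falls on the 2-fold threshold: its log2 ratio of RPKM + 1 was −0.99 so it was not counted as lower, although it was with a pseudocount of 0.1 RPKM. Within a library, where no scaling between libraries enters, the Lama4 level was 0.439 of the Lama5 level in the Procr-positive library (0.414 to 0.466) and 0.0856 of it in the Procr-negative library (0.0785 to 0.0931). Lama4 made up 27.1% of the summed RPKM of the alpha chains in Procr-positive cells, against 7.36% in Procr-negative cells.

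The other alpha chains were low in both libraries. Lama3, the alpha chain of the hemidesmosomal laminin, had 5.21 RPKM from 497 reads in Procr-positive cells, against 4.63 RPKM from 458 reads in Procr-negative cells, a ratio of 1.13 whose interval (0.99 to 1.28) includes 1. Its level per length depends on the transcript used, since the GENCODE annotation of GRCm38 holds coding transcripts of 10548 and of 5551 bases for it and the deposited length was 10343 bases. Reads covered 81.6% of that length in Procr-positive cells, against 75.1% in Procr-negative cells. Lama2, the alpha chain of muscle and nerve sheaths, had 4.89 RPKM in Procr-positive cells, against 3.90 RPKM in Procr-negative cells. Lama1, an early embryonic and kidney chain, was under 1 RPKM in both, at 0.217 RPKM from 19 reads in Procr-positive cells, against 0.384 RPKM from 35 reads in Procr-negative cells, a ratio of 0.563 whose interval (0.304 to 1.01) includes 1.

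The beta chains Lamb2 and Lamb3 differed in opposite directions. Lamb2 had 139 RPKM in Procr-positive cells, against 40.6 RPKM in Procr-negative cells, and was 3.41-fold higher (3.25 to 3.58). Lamb3, the beta chain that pairs with alpha3, had 2.70 RPKM from 101 reads in Procr-positive cells, against 28.8 RPKM from 1118 reads in Procr-negative cells. It was 10.7-fold lower (8.70 to 13.2) in the Procr-positive library. Reads covered 70.9% of Lamb3 in Procr-positive cells, against 99.3% in Procr-negative cells.

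Lamb1 and Lamc1, the beta and gamma chains with the widest use, were moderately higher in the Procr-positive library. Lamb1 had 28.0 RPKM in Procr-positive cells, against 13.6 RPKM in Procr-negative cells, a ratio of 2.05 (1.88 to 2.24). Its log2 ratio of RPKM + 1 was 0.99, just short of 2-fold, and with a pseudocount of 0.5 RPKM it was 1.01. Lamc1 had 55.6 RPKM in Procr-positive cells, against 31.3 RPKM in Procr-negative cells, a ratio of 1.77 (1.68 to 1.87). Centred on the median of all genes, both passed 2-fold, with log2 ratios of 1.36 for Lamb1 and 1.19 for Lamc1. Lamc3 was scarce, with 1.50 RPKM from 82 reads in Procr-positive cells, against 0.317 RPKM from 18 reads in Procr-negative cells. The pseudocount holds such a low gene under 2-fold, whereas its ratio of reads per M was 4.73 (2.81 to 8.37).

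**Figure D2:**
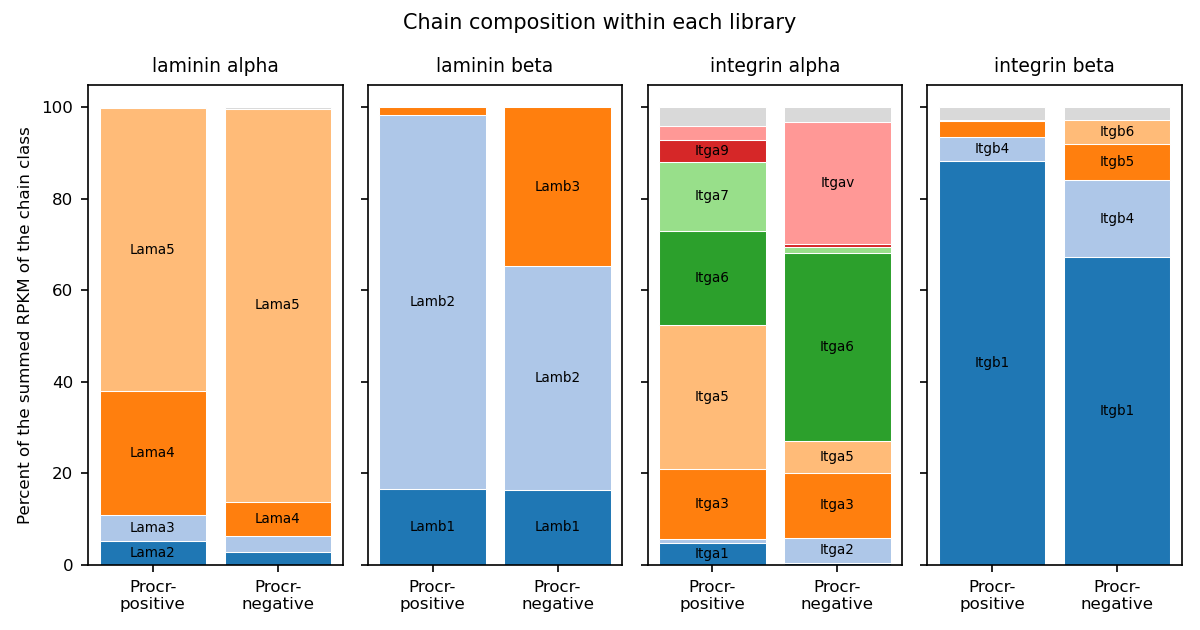
Share of each chain in the summed RPKM of its class (laminin alpha and beta, integrin alpha and beta), with the Procr-positive bar left of the Procr-negative bar in each panel. Grey holds chains under 4% in both libraries, and segments under 4.5% are not labelled. Lamb3 takes 1.60% of beta chain RPKM in Procr-positive cells, against 34.7% in Procr-negative cells.

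Set by chain class, the beta transcripts had a different make-up in the libraries. Lamb2 made 81.9% of beta chain RPKM in Procr-positive cells, against 48.9% in Procr-negative cells. Lamb3 made 1.60% in Procr-positive cells, against 34.7% in Procr-negative cells, while Lamb1 held 16.5% in Procr-positive cells, against 16.4% in Procr-negative cells. Within a library, the Lamb3 level was 0.0195 of the Lamb2 level in Procr-positive cells (0.0159 to 0.0237), against 0.709 of it in Procr-negative cells (0.659 to 0.763).

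Lamb3 and Lama3, which share the hemidesmosomal laminin, did not move together. Lamb3 was far lower in the Procr-positive library, whereas Lama3 did not differ beyond counting error on the deposited scale. On centring at the median of all genes, the log2 ratio was 0.52 for Lama3, within 2-fold, and −2.63 for Lamb3. The Lamb3 level was 0.518 of the Lama3 level in the Procr-positive library (0.414 to 0.643) and 6.23 times it in the Procr-negative library (5.58 to 6.96). The scarcer of this pair was Lamb3 in the Procr-positive library, at 2.70 RPKM, and Lama3 in the Procr-negative library, at 4.63 RPKM.

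The nidogens and perlecan were higher in the Procr-positive library and agrin lay within 2-fold. Nid1, the main nidogen, had 84.9 RPKM from 4733 reads in Procr-positive cells, against 17.0 RPKM from 986 reads in Procr-negative cells, a 4.98-fold difference (4.65 to 5.34). Nid2 had 13.2 RPKM in Procr-positive cells, against 3.15 RPKM in Procr-negative cells, and was 4.18-fold higher (3.48 to 5.04). Its exons overlap those of Rtraf on the opposite strand over 8.45% of their length, and Rtraf, an RNA-binding protein gene, stood at 35.4 RPKM in Procr-positive cells, against 50.3 RPKM in Procr-negative cells. The sources used here do not say whether counting used strand, so the reads of the shared stretch may belong to either gene.

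Hspg2 had 39.9 RPKM in Procr-positive cells, against 13.6 RPKM in Procr-negative cells, and was 2.94-fold higher (2.79 to 3.10). Agrn had 32.7 RPKM in Procr-positive cells, against 34.2 RPKM in Procr-negative cells. Its ratio was 0.957 with an interval (0.903 to 1.01) that includes 1, and its log2 ratio was 0.32 on centring at the median of all genes. The Hspg2 level was therefore 1.22 times the Agrn level in the Procr-positive library (1.16 to 1.28) and 0.396 of it in the Procr-negative library (0.373 to 0.421). Nid1 stood at 1.53 times the Lamc1 level in Procr-positive cells (1.46 to 1.59), against 0.544 times in Procr-negative cells (0.504 to 0.586), whereas the ratio of Nid2 to Nid1 was 0.155 in Procr-positive cells (0.142 to 0.169), against 0.185 in Procr-negative cells (0.154 to 0.220), with intervals that overlap.

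The integrins that bind laminin share the beta1 subunit except for alpha6 beta4. Itgb1 had 319 RPKM in Procr-positive cells, against 254 RPKM in Procr-negative cells, a ratio of 1.25 (1.22 to 1.28). It took 88.3% of beta subunit RPKM in Procr-positive cells, against 67.3% in Procr-negative cells. Itgb4, whose long cytoplasmic tail links to keratin through plectin, had 19.1 RPKM in Procr-positive cells, against 63.5 RPKM in Procr-negative cells, and was 3.32-fold lower (3.11 to 3.56). Within a library, Itgb4 stood at 0.0600 of Itgb1 in Procr-positive cells (0.0564 to 0.0639), against 0.250 of it in Procr-negative cells (0.240 to 0.259).

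The alpha partners of the laminin-binding dimers each went their own way. Itga7, the laminin receptor of muscle, had 53.0 RPKM from 1972 reads in Procr-positive cells, against 5.73 RPKM from 221 reads in Procr-negative cells. It was 9.26-fold higher (8.05 to 10.7). Itga6 (CD49f), used to enrich mammary basal and stem cells by sorting, had 73.4 RPKM in Procr-positive cells, against 173 RPKM in Procr-negative cells, and was 2.36-fold lower (2.26 to 2.47). Itga3, the partner of beta1 in epithelial and vascular cells, had 54.5 RPKM in Procr-positive cells, against 60.1 RPKM in Procr-negative cells, a ratio of 0.907 (0.859 to 0.958). The direction of Itga3 depended on the scale: its log2 ratio of RPKM + 1 was −0.14, and 0.24 on centring at the median of all genes.

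Of Itga6, Itga3 and Itga7, Itga6 was highest in both libraries, with different spacing. In the Procr-positive library Itga6, Itga3 and Itga7 lay between 53.0 and 73.4 RPKM, and Itga7 was 0.722 of Itga6 (0.682 to 0.765). Itga3 and Itga7 were close there, at 54.5 and 53.0 RPKM, and their order was not tested. In the Procr-negative library Itga6 stood 2.89 times above Itga3 (2.76 to 3.02), and Itga7 was 0.0330 of Itga6 (0.0287 to 0.0377). The call of Itga6 as lower did not hold when log ratios were centred on the median of all genes (−0.85) or scaled by the upper quartile (−0.92).

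**Figure D3:**
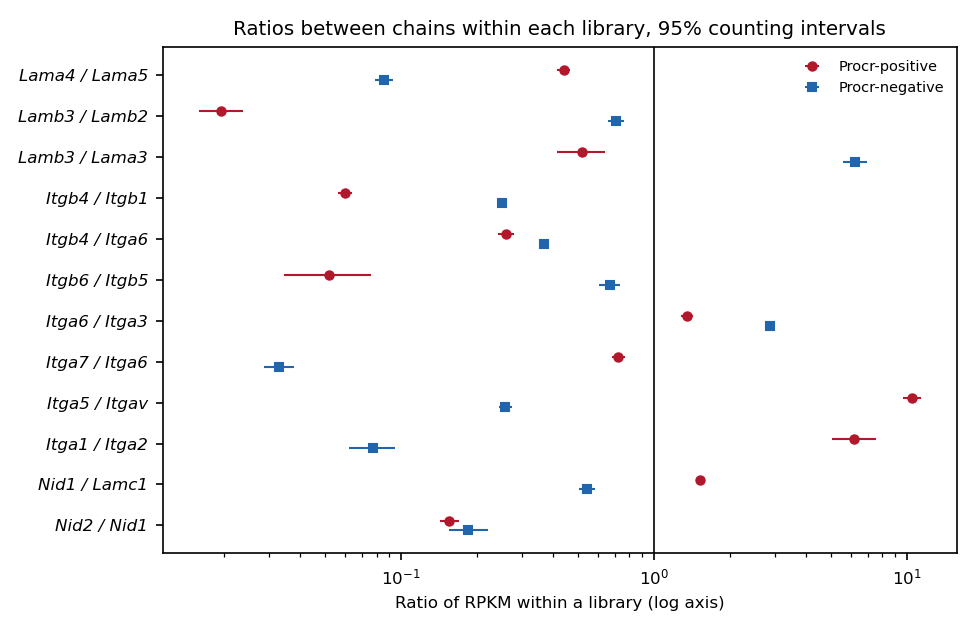
Ratios between pairs of chains within each library on a log axis, circles for the Procr-positive and squares for the Procr-negative library, with exact 95% intervals that cover counting error only. Levels per length use the deposited gene lengths. Some ratios lie far apart (Itga1 over Itga2 is 6.16 in Procr-positive cells, against 0.0772 in Procr-negative cells), while those of Itgb4 over Itga6 and Nid2 over Nid1 lie closer.

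Set against the laminins they bind, receptor and ligand transcripts pointed the same way for some matches only. For the hemidesmosome, Itga6, Itgb4 and Lamb3 were lower in the Procr-positive library and Lama3 was not. The ratio of Itgb4 to Itga6 was 0.261 in Procr-positive cells (0.243 to 0.279), against 0.366 in Procr-negative cells (0.352 to 0.381). For the vascular laminins, Lama4 and Lamb2 were higher, Lamb1 and Lamc1 were higher short of 2-fold and Lama5 lay on the lower threshold. The scarcest chain of laminin-411 and laminin-421 was Lama4 in both libraries, at 25.0 RPKM in Procr-positive cells, against 9.77 RPKM in Procr-negative cells. For laminin-521 it was Lamc1 in both, at 55.6 RPKM in Procr-positive cells, against 31.3 RPKM in Procr-negative cells. For laminin-511 it was Lamb1, at 28.0 RPKM in Procr-positive cells, against 13.6 RPKM in Procr-negative cells. Laminin-211, the classic ligand of alpha7 beta1, had Lama2 as its scarcest chain in both libraries, and Lama2 differed far less between them than Itga7. Of 23 integrin pairs examined, all of them known dimers, 4 had both subunits lower in the Procr-positive library (Itga6 with Itgb4 and Itgav with Itgb5, Itgb6 or Itgb8), none had both higher and none had subunits called in opposite directions. On centring at the median of all genes, 2 pairs had both subunits lower (Itgav with Itgb6 or Itgb8) and 2 had both higher (Itgb2 with Itgal or Itgam), and with upper-quartile scaling these counts were 2 lower and 0 higher. Pairs with Itgb1 could not enter any of these counts, because Itgb1 lay within 2-fold on every scale. On the deposited scale the same holds for pairs with Itga4, Itgae or Itgax, which were under 1 RPKM in both libraries. The lower pairs of Itgav all share that subunit. The counts therefore do not show whether partners of a dimer differ together. All values are transcript levels, and dimers, trimers and the matrix itself were not measured.

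The collagen-binding subunits alpha1 and alpha2 were exchanged between the libraries. Itga1 had 17.2 RPKM from 949 reads in Procr-positive cells, against 1.82 RPKM from 104 reads in Procr-negative cells, and was 9.47-fold higher (7.72 to 11.7). Itga2 had 2.79 RPKM from 109 reads in Procr-positive cells, against 23.6 RPKM from 954 reads in Procr-negative cells, and was 8.44-fold lower (6.91 to 10.4). The deposited lengths were 5984 bases (Itga1) and 4235 bases (Itga2). The longest coding transcripts in GENCODE have 10967 bases (Itga1) and 7108 bases (Itga2). Their RPKM and their ratio within a library therefore depend on the length used. The genes are neighbours on chromosome 13 (GRCm38), Itga2 at 114833081 to 114932100 and Itga1 at 114958079 to 115101964, with 25978 bases between them that hold no whole RefSeq gene. Itga10 and Itga11, receptors of cartilage and fibroblasts, were scarce, and 33.5% of Itga10 exon length is shared with Gm42957 on the same strand. Itga10 had 1.57 RPKM in Procr-positive cells, against 0.311 RPKM in Procr-negative cells. Its ratio of reads per M was 5.05 (2.87 to 9.48) and its log2 ratio of RPKM + 1 was 0.97, which became 1.35 with a pseudocount of 0.5 RPKM. Itga11 had 1.12 RPKM in Procr-positive cells, against 0.911 RPKM in Procr-negative cells.

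Itgam and Itgax also lie close, 11034 bases apart on chromosome 7, with 1 RefSeq gene between them that is not protein-coding. Exons of 15 of the 45 genes overlap those of another annotated gene, with 11 overlaps above 5% of the member's exon length, among them Cerkl with Itga4 and B230344G16Rik with Itgb4 on opposite strands.

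The receptors of fibronectin and other ligands with the RGD motif parted by alpha subunit. Itga5, which with beta1 forms the classic fibronectin receptor, had 112 RPKM from 4545 reads in Procr-positive cells, against 29.2 RPKM from 1229 reads in Procr-negative cells, and was 3.84-fold higher (3.60 to 4.09). Itgav had 10.7 RPKM from 696 reads in Procr-positive cells, against 113 RPKM from 7623 reads in Procr-negative cells, and was 10.6-fold lower (9.77 to 11.4). The level of Itga5 was 10.5 times that of Itgav in the Procr-positive library (9.67 to 11.4) and 0.259 of it in the Procr-negative library (0.243 to 0.275). Itga8, a mesenchymal subunit, had 4.37 RPKM in Procr-positive cells, against 2.31 RPKM in Procr-negative cells.

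Among the beta partners of alphav, Itgb6, Itgb8 and Itgb5 were called lower in the Procr-positive library, by unequal amounts, and Itgb1 and Itgb3 lay within 2-fold. Itgb6, an epithelial subunit that with alphav activates latent TGF-beta, had 0.643 RPKM from 29 reads in Procr-positive cells, against 19.9 RPKM from 930 reads in Procr-negative cells. It was 30.9-fold lower (21.4 to 46.4). On the log2 scale of RPKM + 1, where the pseudocount shrinks such a scarce gene, 1.23% of the 12509 genes with at least 1 RPKM in either library had a lower ratio. Itgb8, the other known activator of latent TGF-beta with alphav, had 0.210 RPKM from 6 reads in Procr-positive cells, against 2.70 RPKM from 80 reads in Procr-negative cells, 12.9-fold lower with a wide interval (5.65 to 36.1). The RPKM of Itgb8 rests on a deposited length of 3096 bases, whereas its coding transcript in GENCODE has 8403 bases. Itgb5 had 12.3 RPKM in Procr-positive cells, against 29.8 RPKM in Procr-negative cells, and was 2.41-fold lower (2.14 to 2.73), a call lost on centring at the median of all genes (−0.83) or scaling by the upper quartile (−0.91). Itgb3, the beta subunit of angiogenic endothelium and platelets, had 4.27 RPKM in Procr-positive cells, against 6.31 RPKM in Procr-negative cells, a ratio of 0.676 (0.569 to 0.801). Itgb6 stood at 0.0521 of Itgb5 in Procr-positive cells (0.0344 to 0.0760), against 0.667 of it in Procr-negative cells (0.609 to 0.731).

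Itga9, which pairs with beta1 and binds tenascin and other ligands, had 17.5 RPKM in Procr-positive cells, against 3.05 RPKM in Procr-negative cells, and was 5.75-fold higher (4.95 to 6.70). Itga4, the receptor of Vcam1, was under 1 RPKM in both, at 0.927 RPKM from 84 reads in Procr-positive cells, against 0.436 RPKM from 41 reads in Procr-negative cells.

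**Figure D4:**
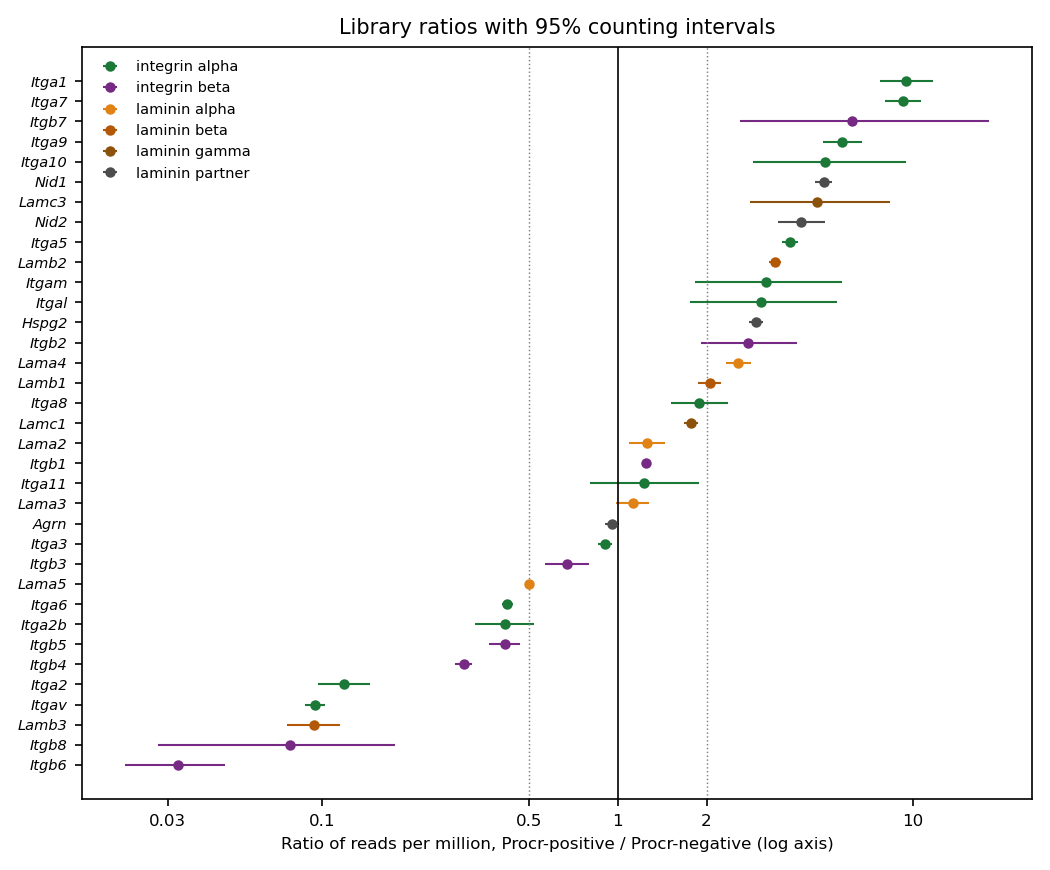
Ratio of reads per M, Procr-positive over Procr-negative, for 35 subunits, chains and partners with at least 1 RPKM in either library, ordered by ratio on a log axis and coloured by class. Bars are exact 95% intervals for counting error only and dotted lines mark 2-fold. Itga1 and Itga7 head the order at 9.47 and 9.26, and Itgb6 closes it at 0.0323.

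Leukocyte subunits were low in both libraries, and Itgb2 was called higher in the Procr-positive one. Itgb2 (CD18), the beta subunit they share, had 4.13 RPKM from 109 reads in Procr-positive cells, against 1.50 RPKM from 41 reads in Procr-negative cells, 2.76-fold higher, with an interval (1.91 to 4.05) that reaches under 2-fold. Its partners Itgal, Itgam and Itgax lay between 0.674 and 1.27 RPKM in the Procr-positive library and between 0.234 and 0.402 RPKM in the Procr-negative library. Itgb7, a lymphocyte subunit, had 1.45 RPKM from 36 reads in Procr-positive cells, against 0.233 RPKM from 6 reads in Procr-negative cells. Its ratio of reads per M was 6.22 (2.60 to 18.1), while its log2 ratio of RPKM + 1 was 0.99. Itgae had 3 reads in Procr-positive cells, against 5 in Procr-negative cells. Beside these, 8 of 12 leukocyte markers were at least 2-fold higher in Procr-positive cells, with a sum of 83.1 RPKM in Procr-positive cells, against 34.0 RPKM in Procr-negative cells and no marker at 0. Their part in the leukocyte subunits was not tested. Of Itgam exon length, 68.7% is shared with Gm49368 on the same strand.

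Itga2b, the platelet and megakaryocyte subunit, ran against that direction. It had 3.38 RPKM from 107 reads in Procr-positive cells, against 8.12 RPKM from 267 reads in Procr-negative cells, and was 2.41-fold lower (1.92 to 3.04), a call lost on centring at the median of all genes (−0.68) or scaling by the upper quartile (−0.80). The 7 platelet and megakaryocyte markers summed to 3.68 RPKM in Procr-positive cells, against 3.59 RPKM in Procr-negative cells. Gp6 was listed in neither library, and Ppbp had no reads in the Procr-negative library. Only Pf4 reached 1 RPKM, at 2.47 RPKM in Procr-positive cells, against 2.72 RPKM in Procr-negative cells, and it lay within 2-fold. The other markers were too low to be called, so the list cannot show whether platelet transcripts differed.

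The 5 further genes with the symbol stem were scarce apart from Itgbl1 and Itgb1bp1. Itgbl1, which encodes a secreted protein with integrin-like EGF repeats, had 0.0920 RPKM from 2 reads in Procr-positive cells, against 6.56 RPKM from 148 reads in Procr-negative cells. The ratio of reads per M was 0.0140, with a counting interval of 0.00168 to 0.0515. Itgb1bp1, whose product binds the beta1 tail, had 8.80 RPKM in Procr-positive cells, against 4.30 RPKM in Procr-negative cells, and its exons overlap Asap2 over 11.4% and Cpsf3 over 5.54% of their length on the opposite strand. Itgb3bp had 11 reads in Procr-positive cells, against 19 in Procr-negative cells, Itgb1bp2 had 1 read in each, and Itgb2l had none in Procr-positive cells, against 1 in Procr-negative cells.

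The promoters of the members at the ends of the range are shown because their genes differed most between the libraries: the highest and the lowest ratio among integrin subunits and among laminin chains and partners, for genes that reached 5 RPKM and 50 reads. Each is the stretch of 250 bases before the first-listed start site in the RefSeq table of GRCm38.p6, and capitals mark the ETS core AGGAAG or the TEAD core GGAATG on either strand.
Itga1 promoter (chr13:115101965-115102214, minus strand): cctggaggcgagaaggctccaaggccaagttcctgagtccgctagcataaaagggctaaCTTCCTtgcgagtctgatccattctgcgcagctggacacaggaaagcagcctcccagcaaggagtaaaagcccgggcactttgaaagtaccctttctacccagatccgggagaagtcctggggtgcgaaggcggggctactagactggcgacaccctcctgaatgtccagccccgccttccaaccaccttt
Itgb6 promoter (chr2:60722604-60722853, minus strand): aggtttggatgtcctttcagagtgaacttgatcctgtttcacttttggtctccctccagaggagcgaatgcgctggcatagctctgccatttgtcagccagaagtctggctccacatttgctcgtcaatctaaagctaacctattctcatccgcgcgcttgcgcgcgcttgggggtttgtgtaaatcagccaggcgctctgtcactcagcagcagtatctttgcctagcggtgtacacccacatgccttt
Nid1 promoter (chr13:13437352-13437601, plus strand): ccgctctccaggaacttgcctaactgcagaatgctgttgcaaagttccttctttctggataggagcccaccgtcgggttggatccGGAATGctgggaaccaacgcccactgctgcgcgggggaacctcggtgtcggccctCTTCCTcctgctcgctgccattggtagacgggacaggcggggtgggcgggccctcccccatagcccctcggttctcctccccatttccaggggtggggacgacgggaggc
Lamb3 promoter (chr1:193301744-193301993, plus strand): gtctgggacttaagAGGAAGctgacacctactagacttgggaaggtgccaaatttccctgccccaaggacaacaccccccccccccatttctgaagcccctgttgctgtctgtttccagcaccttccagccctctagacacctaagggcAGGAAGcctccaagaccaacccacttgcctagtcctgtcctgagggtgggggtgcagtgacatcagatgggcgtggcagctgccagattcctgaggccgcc

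The motifs searched on both strands were AGGAAG, bound by many ETS factors, GGAATG, bound by TEAD factors, AGATAA, bound by GATA factors, and TGANTCA, bound by AP-1. The letters GGAA are common to the ETS and TEAD cores. A promoter was listed for 26 of the 40 subunits, chains and partners. AGGAAG was found in 12 of these 26 and in 29.2% of all 27025 gene promoters, and it occurred in 3 of the 6 promoters of higher genes (Itga1, Lamb2 and Nid1) and in 3 of the 7 of lower genes (Itga2b, Itgav and Lamb3). GGAATG was found in 3 of 26 and in 12.6% of all promoters, TGANTCA in 1 of 26 and in 6.87%, and AGATAA in 1 of 26 and in 10.3%. The Itgb6 stretch held none of the 4. Itgb6 and Lamb3 each have 2 starts in the table, and the Lamb3 stretch shown lies inside the annotated span of the gene, which begins at 193294353. These matches describe letters and do not mark bound sites.

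Of 20 other basement membrane genes, 15 had at least 1 RPKM. Of these 15, 8 (53.3%) were at least 2-fold higher and 3 (20%) lower in the Procr-positive library, against 13.1% and 23.7% of all genes. Their median log2 ratio was 1.41, against −0.38 for all genes, but it was 0.11 over all 20 without the filter. Col15a1, a collagen of vessel and muscle basement membranes, had 93.6 RPKM in Procr-positive cells, against 9.54 RPKM in Procr-negative cells, and was 9.81-fold higher (8.93 to 10.8). The common type IV chains Col4a1 and Col4a2 were 5.21-fold (5.04 to 5.39) and 6.03-fold higher (5.77 to 6.31), at 343 RPKM (Col4a1) and 226 RPKM (Col4a2) in Procr-positive cells, against 65.8 and 37.4 RPKM in Procr-negative cells. The lower genes were Col4a5, Col4a6 and Smoc2. These 3 were named after their values were seen.

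Laminin receptors outside the integrins and the tetraspanins that accompany integrins included calls in both directions, with 3 of 15 (20%) higher and 4 (26.7%) lower, against 13.1% and 23.7% of all genes, and a median of −0.55. With median centring, and likewise with upper-quartile scaling, 7 were higher and 3 lower. Among all genes, 2426 were then higher and 1644 lower with centring, and 2109 higher and 2063 lower with upper-quartile scaling. The syndecan Sdc4 had 34.0 RPKM in Procr-positive cells, against 445 RPKM in Procr-negative cells, and was 13.1-fold lower (12.2 to 14.1). Bcam, the Lutheran receptor of the laminin alpha5 chain, had 217 RPKM in Procr-positive cells, against 38.4 RPKM in Procr-negative cells, and was 5.66-fold higher (5.27 to 6.09), opposite in direction to Lama5. Sgce, a sarcoglycan, had 22.8 RPKM in Procr-positive cells, against 2.93 RPKM in Procr-negative cells, and Sgca, another sarcoglycan, had 53 reads in Procr-positive cells, against 0 in Procr-negative cells. The remaining lower genes were Cd9, Cd44 and Sdc1, named like Sgca after their values were seen. Of the 3 hemidesmosome genes, the keratin linker Plec was 2.17-fold lower (2.10 to 2.23), a call lost on centring at the median of all genes and on upper-quartile scaling, while Dst and Col17a1 lay within 2-fold.

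Of 28 adaptors that couple integrins to actin, 26 had at least 1 RPKM. Of these 26, 6 (23.1%) were higher and 4 (15.4%) lower, against 13.1% and 23.7% of all genes, and the median was −0.13. On centring at the median of all genes, 9 were higher and 4 lower and the median was 0.25, above 0. On that scale 2426 of all 12509 genes were higher and 1644 lower. Parvb had 32.1 RPKM in Procr-positive cells, against 2.88 RPKM in Procr-negative cells, and was 11.2-fold higher (9.11 to 13.8), whereas Parva had 32.1 RPKM in Procr-positive cells, against 30.2 RPKM in Procr-negative cells. Lims2 was 9.20-fold higher (6.75 to 12.8), whereas Lims1 had 26.3 RPKM in Procr-positive cells, against 27.8 RPKM in Procr-negative cells. Fermt1, the epithelial kindlin, had 0.640 RPKM in Procr-positive cells, against 12.7 RPKM in Procr-negative cells, and was 19.8-fold lower (13.8 to 29.4), whereas the widely expressed kindlin Fermt2 had 165 RPKM in Procr-positive cells, against 99.7 RPKM in Procr-negative cells. Parva, Lims1 and Fermt2 were named after their values were seen.

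Of 18 integrin ligands other than laminins, 6 (33.3%) were higher and 4 (22.2%) lower, against 13.1% and 23.7% of all genes, with a median of 0.39. Vtn, the vitronectin bound by alphav integrins, had 58.8 RPKM in Procr-positive cells, against 3.26 RPKM in Procr-negative cells, and was 18.0-fold higher (13.7 to 24.1), opposite in direction to Itgav. Spp1, the osteopontin gene and another alphav ligand, was 12.1-fold lower (11.3 to 13.0), and Cdh1, the ligand of the Itgae dimer, 23.0-fold lower (21.6 to 24.4). The ligand list shares genes with the marker lists. Vtn is also a pericyte and smooth muscle marker, Icam2 a pan-endothelial marker and Cdh1 a luminal marker, so these genes count in both.

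**Figure D5:**
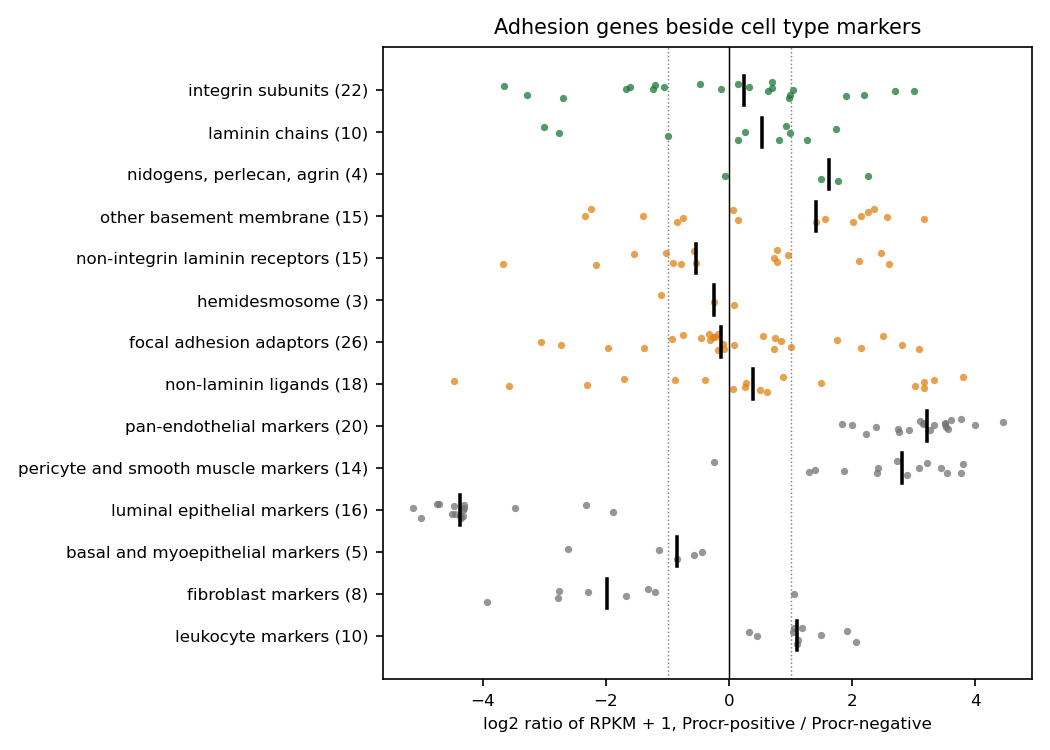
Log2 ratio of RPKM + 1 (Procr-positive cells over Procr-negative cells) for each gene with at least 1 RPKM in either library (points; number of genes in brackets) and the median of each list (black bar), with dotted lines at 2-fold. Integrin subunits (median 0.24) and laminin chains (0.54) spread over both directions, while pan-endothelial markers (3.21) and luminal epithelial markers (−4.37) stand apart on either side.

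Marker levels also differed between the libraries, and the part of cell types in the levels of the members was not tested. Beside the higher members stood the pan-endothelial markers, with a median log2 ratio of 3.21, and the pericyte and smooth muscle markers, of which 13 of 14 were at least 2-fold higher and which summed to 1670 RPKM in Procr-positive cells, against 206 RPKM in Procr-negative cells. Beside the lower members stood the luminal epithelial markers, with a median of −4.37, and the fibroblast markers, of which 7 of 8 were at least 2-fold lower and which summed to 90.9 RPKM in Procr-positive cells, against 582 RPKM in Procr-negative cells. The 6 basal and myoepithelial markers summed to 93.1 RPKM in Procr-positive cells, against 182 RPKM in Procr-negative cells, and 2 of them, Krt15 and Krt17, were at least 2-fold lower. The 4 lymphatic endothelial markers summed to 13.2 RPKM in Procr-positive cells, against 67.4 RPKM in Procr-negative cells, and the 6 Schwann cell markers to 10.7 RPKM in Procr-positive cells, against 59.7 RPKM in Procr-negative cells. None of these markers was at 0 in either library. On the log2 scale of RPKM + 1, no subunit, chain or partner lay above the pan-endothelial median or below the luminal one. Within 1 log2 unit of the pan-endothelial median lay 3 (Itga1, Itga7 and Nid1), and within 1 of the luminal median lay 1 (Itgb6). The median of the pericyte and smooth muscle markers was 2.81. Itga1 (2.69), Itga5 (1.90), Itga7 (3.01), Itga9 (2.19) and Nid1 (2.25) lay within 1 log2 unit of that median, and Itga7 lay above it. These positions depend on the pseudocount for scarce genes. Itgb6, at 0.643 RPKM in Procr-positive cells, had a log2 ratio of −3.67 on this scale and −4.90 by reads per M with a prior of 1 read. Marker medians were not computed on the latter scale, so the place of Itgb6 against the luminal median was not tested there.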

How the data were processed

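Total RNA of 2 sorted populations was sequenced on an Illumina HiSeq as single reads, per the labels' protocols, and reads with a unique place in mm10 were kept. The aligner, the counting tool, the annotation and any use of strand are not stated in the sources used here. The authors deposited counts of such reads for each gene, per the file headers, and left out genes with 0 reads. RPKM values were deposited by the authors and equalled reads per listed kb and per M reads. The percent of each gene's length covered by reads was also deposited by the authors. Unique mapping lowers genes with near-identical copies.

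With 1 library per group no test was made. A gene was called from 2-fold on log2(RPKM + 1), Procr-positive over Procr-negative, with at least 1 RPKM in either library. Folds are ratios of reads per M with exact conditional binomial (Clopper-Pearson) 95% intervals, and ratios within a library compare reads per length. Intervals cover counting error only, since 1 library per group holds no variation between animals or preparations. They may be too narrow even for counting error, because PCR copies are not independent molecules. Missing members of a library count as 0 reads. Coordinates come from RefSeq on GRCm38.p6, the assembly behind mm10, which matched all 45 genes. Exon overlap and transcript lengths come from GENCODE M21. Apart from a gene and a marker not reported here, every member with at least 1 RPKM was named, and of each pathway list the 3 genes with the largest ratio among those with at least 5 RPKM and 50 reads. The members and the 14 gene lists were chosen with earlier results of these data known. Alternatives were pseudocounts of 0.1 and 0.5 RPKM, no filter, a filter of 5 RPKM, median centring, upper-quartile scaling, TPM, reads per M with a prior of 1 read, and a counting interval beyond 2-fold. Calculations used Python 3.11.15, pandas 2.3.3 and SciPy 1.17.1 and were tested on simulated counts.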

Additional observations from a re-analysis of the deposited data

How the results depend on the processing

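Of the 36 subunits, chains and partners with at least 1 RPKM, 24 kept their call under all 8 alternative scales and filters in which they could be computed, among them all 10 higher and 7 of the 10 lower genes, and no called gene changed sign. Of the called genes, the filter of 5 RPKM left out Itgb2 and Itgb8, whose calls were therefore not checked under it. By counting intervals beyond 2-fold, a further alternative, 12 members were higher and 9 lower, with Itga10, Itgb7 and Lamc3 added as higher, Itgb2 no longer higher and Itga2b no longer lower. Centring on the median of all genes gave 18 higher members, 10 higher and 5 lower integrin subunits and 5 higher laminin chains, with medians of 0.85 (members), 0.62 (subunits) and 0.92 (chains). Upper-quartile scaling gave 5 lower subunits and 5 higher chains, with medians of 0.55 (subunits) and 0.79 (chains). A pseudocount of 0.1 RPKM, and likewise reads per M with a prior of 1 read, gave 16 higher members, 9 higher subunits and 4 higher chains. A pseudocount of 0.5 RPKM gave 4 higher chains. TPM gave 8 higher subunits, 4 higher chains and a member median of 0.70. Without a filter the chain median was 0.27. With at least 5 RPKM the member median was 0.0402 and the subunit median −0.77, the only median of these to change sign. Among all genes, 2426 were higher and 1644 lower when centred and 2109 higher and 2063 lower with upper-quartile scaling, against 1643 higher and 2964 lower on the deposited scale. By counting intervals beyond 2-fold, 1532 of all genes were higher and 2512 lower. The number of all genes higher was 2005 with a pseudocount of 0.1 RPKM and 1836 with 0.5 RPKM. It was 2029 with a prior of 1 read and likewise with TPM. No paired analysis was possible because each group holds 1 library, and for the same reason no library could be left out. Ratios within a library do not depend on the scaling. Depth limits Itgae, Itgb8, Itgb7, Lamc3 and the genes of the leukocyte dimers, which rest on few reads.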
